A study of Mus musculus with 4 samples.

Results

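The genes described here are 44 cell cycle genes, taken as a fixed list of gene symbols and found under those names among the 27998 genes of the count tables. They fall into 26 genes of G2 and mitosis (G2/M), 13 genes of the G1/S transition and DNA replication (S), and 5 cyclins of G1, the D and E cyclins. Transcripts were counted in single cells of 2 pancreatic tumors of KPC mice with the 10x Genomics 3' assay, which tags each captured mRNA molecule with a unique molecular identifier (UMI). Each tumor gave 1 library of cells sorted as cancer-associated fibroblasts (CAFs; negative for DAPI, CD45, CD31 and EpCAM and positive for PDPN) and 1 library of all live cells (negative for DAPI), so that there were 2 sorted CAF and 2 all live libraries. All cells came from mice with the alleles KrasLSL-G12D/+ and Trp53LSL-R172H/+ together with the Pdx1-Cre transgene on a C57BL/6J background, and no library from a mouse without these alleles was analysed. The Pdx1 promoter directs Cre to the pancreatic epithelial lineage, so that the 2 mutant alleles are switched on in epithelium and not in stroma. The sources used here give no ages. The technical replicates that the design text mentions could not be told apart in the 4 libraries, and EpCAM is named in the gate but not among the listed antibodies.

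Progress through the cell cycle is driven by cyclins and the kinases they activate. D cyclins, induced by growth factor and Ras signalling, act with Cdk4 and Cdk6 and then E cyclins with Cdk2 to inactivate the retinoblastoma protein, which releases E2F factors that switch on the replication genes. Later, the MuvB complex with B-Myb and Foxm1, together with the CCAAT-binding factor NF-Y, switches on the genes of mitosis, many of which carry a promoter element called the cell cycle genes homology region (CHR). Staining for Ki-67, the protein product of Mki67, is a common measure of proliferation in pancreatic tumors.

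The promoter sequences below show how the phases differ in these elements. Each window runs from 250 bases before to 50 bases after the first listed start of a gene in the RefSeq promoter table of build GRCm38.p6. The windows of Cks2 (a small Cdk-binding subunit) and Cenpa (the centromeric histone H3 variant) belong to the G2/M genes with the highest mean level, and those of Rrm2 (the regulated subunit of ribonucleotide reductase) and Pcna (the sliding clamp of DNA polymerase) to the S genes with the highest mean level. Those of Ccnb2 (a B-type cyclin of mitosis) and Mcm6 (a subunit of the replicative helicase) were chosen after the motifs had been counted, because they hold several. Capitals mark the letters of 3 motifs, searched on both strands. The CHR was searched as TTTGAA and the NF-Y box as CCAAT, which reads as its reverse complement where it lies on the other strand. The E2F motif was searched as TTTGGCGC or TTTCCCGC, and no marked letters overlap one another.
Cks2, chr13:51644982-51645281, plus strand: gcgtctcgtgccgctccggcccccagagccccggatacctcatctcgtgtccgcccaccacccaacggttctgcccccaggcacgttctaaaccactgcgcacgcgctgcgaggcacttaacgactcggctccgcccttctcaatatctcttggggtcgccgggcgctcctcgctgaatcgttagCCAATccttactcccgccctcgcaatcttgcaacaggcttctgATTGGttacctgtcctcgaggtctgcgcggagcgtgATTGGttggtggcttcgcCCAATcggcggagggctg
Cenpa, chr5:30666636-30666935, plus strand: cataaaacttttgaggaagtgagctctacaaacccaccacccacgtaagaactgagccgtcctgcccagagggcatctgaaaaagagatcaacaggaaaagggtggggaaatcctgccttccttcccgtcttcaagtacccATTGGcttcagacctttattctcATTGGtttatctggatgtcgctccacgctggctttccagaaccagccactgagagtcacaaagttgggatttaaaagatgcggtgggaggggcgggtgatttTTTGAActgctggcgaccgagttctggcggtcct
Ccnb2, chr9:70421505-70421804, minus strand: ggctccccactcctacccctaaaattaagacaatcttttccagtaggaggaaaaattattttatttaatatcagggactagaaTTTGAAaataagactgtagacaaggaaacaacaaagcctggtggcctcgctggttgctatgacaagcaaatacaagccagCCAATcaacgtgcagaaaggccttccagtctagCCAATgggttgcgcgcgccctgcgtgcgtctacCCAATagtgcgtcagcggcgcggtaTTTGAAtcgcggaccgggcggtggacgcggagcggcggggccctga
Rrm2, chr12:24708004-24708303, plus strand: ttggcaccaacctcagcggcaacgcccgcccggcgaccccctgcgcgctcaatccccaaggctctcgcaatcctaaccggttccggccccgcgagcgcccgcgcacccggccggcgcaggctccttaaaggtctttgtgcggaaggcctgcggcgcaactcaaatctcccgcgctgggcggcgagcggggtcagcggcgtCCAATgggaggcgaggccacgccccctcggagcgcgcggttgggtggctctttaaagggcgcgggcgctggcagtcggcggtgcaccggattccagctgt
Pcna, chr2:132253131-132253430, minus strand: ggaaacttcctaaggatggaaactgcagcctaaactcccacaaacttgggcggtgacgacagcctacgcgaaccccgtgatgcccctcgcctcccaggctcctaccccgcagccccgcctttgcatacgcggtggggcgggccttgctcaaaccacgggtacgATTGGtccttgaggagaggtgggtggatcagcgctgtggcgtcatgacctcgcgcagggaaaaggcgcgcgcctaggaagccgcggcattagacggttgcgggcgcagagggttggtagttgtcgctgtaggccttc
Mcm6, chr1:128359656-128359955, minus strand: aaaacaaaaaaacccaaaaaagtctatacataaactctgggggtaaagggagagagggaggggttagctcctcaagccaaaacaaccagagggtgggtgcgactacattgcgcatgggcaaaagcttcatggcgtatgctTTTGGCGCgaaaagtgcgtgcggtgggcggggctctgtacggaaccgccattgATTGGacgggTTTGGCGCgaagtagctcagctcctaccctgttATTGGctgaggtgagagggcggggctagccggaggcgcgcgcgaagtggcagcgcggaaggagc

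A promoter window was found for 22 of the 26 G2/M genes, 12 of the 13 S genes and 2 of the 5 cyclins (Ccnd3 and Ccne1). The CHR letters were in 16 of the 22 G2/M windows (72.7%) and in 1 of the 12 S windows (Mcm2, 8.33%), against 18.1% of the windows of all 27025 genes. CCAAT was in 20 of the G2/M windows (90.9%) and 8 of the S windows (66.7%), against 37.9% of all genes. At least 2 copies were in 15 G2/M windows (68.2%) and 5 S windows (41.7%), against 12.2% of all. The E2F letters were in 6 of the 12 S windows (50%; Cdc6, Cdt1, Mcm3, Mcm5, Mcm6 and Mcm7), against 1.63% of all genes and 0 of the 22 G2/M windows. Ccnb2 held 3 CCAAT copies, the first at bases 164 to 168 of the window, and 2 CHR copies at bases 84 to 89 and 255 to 260, and Mcm6 held E2F letters at bases 141 to 148 and 204 to 211. Neither cyclin window held any of these letters. These matches describe letters in a window and not bound sites. The windows of Ccna2, Tpx2, Aurkb, Kif20a, Mcm4, Ccnd1, Ccnd2 and Ccne2 were not used here.

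The analysis used 7827 of 8282 cell barcodes, and the 4 libraries held between 14972652 and 30950993 UMIs, with a median of 3287 to 13764 UMIs per barcode; 31 barcodes occurred in more than 1 library. Cells were grouped with all cell cycle genes left out of the clustering, and each group was named from a fixed marker list. Library sorted CAF 1 stood apart from its gate: 76.19% of its cells were ductal epithelial-like and 12.7% fibroblast-like, while library sorted CAF 2 was 72.54% fibroblast-like and 10.59% ductal epithelial-like. In the ductal epithelial-like cells of library sorted CAF 1 Krt18 was at 6.02e+03 counts per 1e+06 UMIs (CPM), Epcam at 6.85 CPM and Pdpn at 0.7 CPM, a Pdpn level that goes against the gate; Pdpn was at 383 CPM in the fibroblast-like cells of that library. The summed 9 fibroblast markers were at 31.68 to 473.9 CPM in ductal epithelial-like cells, and the summed ductal epithelial markers were at 282.9, 825.6, 46.61 and 38.11 CPM in the fibroblast-like cells of libraries sorted CAF 1, all live 1, sorted CAF 2 and all live 2. Those 4 libraries are given in this order throughout, the first 2 from tumor 1 and the last 2 from tumor 2. Levels are CPM over the summed cells of a class in a library, in sums of at least 20 cells, with 25 such sums. They come from 3' ends, so each gene is compared with itself and not with other genes. Where a sum is higher, more cells in cycle and more transcript per cell in cycle cannot be told apart, so shares of cells are given as well.

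Ductal epithelial-like cells of tumor 1 carried the most G2/M transcript among the 4 classes that had at least 20 cells in 3 or more libraries. The 26 G2/M genes summed to 1408, 1284, 659 and 936.7 CPM in ductal epithelial-like cells and to 409.9, 476.7, 674.2 and 529.3 CPM in fibroblast-like cells. The 2 classes lay far apart in tumor 1, whereas in library sorted CAF 2 the fibroblast-like sum was slightly the higher one. Mesothelial-like cells reached 701.1, 570.2 and 608.5 CPM in libraries sorted CAF 1, all live 1 and sorted CAF 2, and macrophage or monocyte-like cells 729.7, 606.5 and 529.9 CPM in libraries all live 1, sorted CAF 2 and all live 2.

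Several smaller classes carried sums in or above the range of the ductal epithelial-like cells. Pericyte-like cells of library sorted CAF 2 (58 cells) reached 1734 CPM (95% exact Poisson interval 1623 to 1849), B or plasma-like cells of library all live 2 1478 CPM (1336 to 1631) and dendritic-like cells of the same library 1310 CPM (1241 to 1381). The last 2 intervals overlap those of ductal epithelial-like cells of tumor 1. Neutrophil-like cells reached 1878 CPM in library all live 1 (37 cells) and 269.3 CPM in library all live 2 (444 cells), from different clusters that are described below. T or NK-like cells were at 211.6 CPM, with 18 of the 26 genes at 0 UMIs, and acinar-like cells were at 68.85 and 67.5 CPM in libraries sorted CAF 2 and all live 2. Adipocyte-like cells had the lowest sum, 48.34 CPM. Intervals here and below cover counting error only.

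The S genes had a higher sum in ductal epithelial-like than in fibroblast-like cells in every library. The 13 genes summed to 676.2, 652.4, 411 and 349.5 CPM in ductal epithelial-like cells and to 211.6, 202.6, 229.8 and 283.7 CPM in fibroblast-like cells. The levels did not overlap, but in library all live 2 their exact Poisson intervals did (320.7 to 380.1 and 245.8 to 325.7 CPM). The G2/M sum was 2.08, 1.97, 1.6 and 2.68 times the S sum in ductal epithelial-like cells and 1.94, 2.35, 2.93 and 1.87 times in fibroblast-like cells. It was 6.29 times the S sum in pericyte-like cells (275.7 CPM of S genes) and 3.85 times in dendritic-like cells (340 CPM of S genes). Pericyte-like cells thus had a large G2/M sum beside an S sum within the fibroblast-like range.

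**Figure D1:**
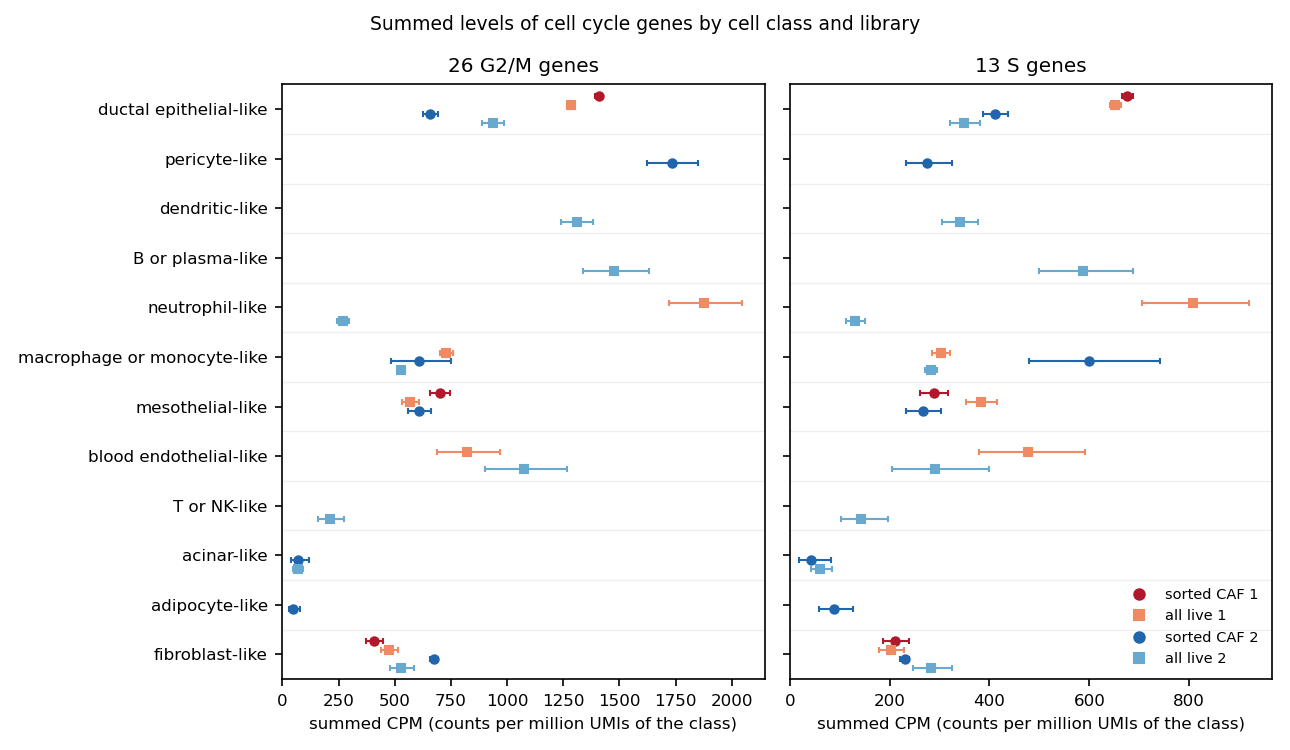
Summed level of the G2/M genes and of the S genes (CPM) in each cell class, with 1 point per library and 95% exact Poisson intervals. Ductal epithelial-like cells of tumor 1 lie at 1408 and 1284 CPM of G2/M genes, and acinar-like and adipocyte-like cells below 70 CPM.

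Shares of cells were read after every cell was thinned to 1500 UMIs; all analysed cells were deeper than that. A cell was counted when UMIs of at least 3 of the 26 G2/M genes were left in it. This was so in 22.9%, 19.2%, 6.25% and 9.36% of ductal epithelial-like cells (exact 95% binomial intervals 20.4 to 25.6, 16.8 to 21.7, 2.74 to 11.9 and 5.44 to 14.7). In fibroblast-like cells the shares were 3.98%, 6.38%, 10% and 11.3% (1.61 to 8.02, 2.96 to 11.8, 8.13 to 12.2 and 6.16 to 18.6). The epithelial intervals lay above the fibroblast intervals in tumor 1 and overlapped them in tumor 2. At least 2 S genes were left in 15.6%, 16.2%, 6.25% and 8.19% of ductal epithelial-like cells. In fibroblast-like cells this share was 5.11%, 4.26%, 3.76% and 7.83%. These intervals too were apart in tumor 1 and overlapped in tumor 2 (4.55 to 13.4 and 3.64 to 14.3 in library all live 2). Mesothelial-like shares were 7.53%, 6.45% and 3.7% in libraries sorted CAF 1, all live 1 and sorted CAF 2.

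Among leukocytes, 9.86% of macrophage or monocyte-like cells of library all live 1 and 6.7% of those of library all live 2 were counted. With the cell cycle genes kept for clustering the shares of the class were 8.19% and 1.47%, so that the value of library all live 2 depends on how the class was drawn. Under that setting, clusters led by Top2a (144 cells of library all live 2) and by Retnla (121 cells) stayed unnamed and outside the class. Each of them had 6 macrophage or monocyte markers. Dendritic-like cells were at 13.1% (8.93 to 18.2) and B or plasma-like cells at 9.89% (4.62 to 17.9). No cell was counted among 125 T or NK-like cells, for which 3 counts would be a share of 2.4% and the exact interval ends at 2.91%, among 88 and 26 acinar-like cells of libraries all live 2 and sorted CAF 2, or among 27 adipocyte-like cells. Neutrophil-like cells of library all live 2, a class whose mature cells no longer divide, gave a background of 0.901% (4 of 444, median 2386 UMIs); the median depth of the ductal epithelial-like cells was 17711.5, 19191.5, 16844 and 7362 UMIs.

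The share is a range on a score and not a cell type. In ductal epithelial-like cells of library sorted CAF 1, 67 cells had exactly 3 genes and 78 cells were 1 gene short, and in library sorted CAF 2 19 cells were 1 gene short beside 8 that were counted. Without thinning the shares were 51.1%, 52.5%, 49.2% and 22.8% in ductal epithelial-like cells and 6.82%, 12.1%, 26.7% and 24.3% in fibroblast-like cells. The epithelial share of library sorted CAF 2 was therefore below that of library all live 2 after thinning and above it before, and no order is read from that pair.

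Within the classes the G2/M genes were concentrated in certain clusters. Epithelial cluster 0, led by the water channel gene Aqp5 and the keratin gene Krt6a, had 46.3% and 38.8% of its cells counted in libraries sorted CAF 1 and all live 1 (41 to 51.7 and 33.5 to 44.3), with 2063 and 1850 CPM of G2/M genes. The S gene Rrm2 was itself among its 10 leading genes, although it had not been used for clustering. Cluster 1, led by Ttr and Sprr1a, had 17.2% and 14.1%, and cluster 6, led by the neuropeptide gene Npy and the prohormone-processing gene Cpe, 4.28% and 4.98% in the same libraries. These 3 clusters held 969 of 1056 and 934 of 1048 ductal epithelial-like cells of libraries sorted CAF 1 and all live 1. Most ductal epithelial-like cells of tumor 2 lay in cluster 10, led by the gastric genes Gkn3 and Tff2 and by Epcam, with 7.14% and 4.92% counted in libraries sorted CAF 2 and all live 2 and 0 of 29 cells in library all live 1. Cluster 13 (30 cells of library all live 2, led by Wfdc18 and Mmp7) had 16.7% (5.64 to 34.7).

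Fibroblast-like cells split into a cluster with G2/M transcripts in every library and one with hardly any. Cluster 7, led by Cxcl14, Sfrp1 and Tnc, had 10.5%, 15.6%, 13.4% and 14.3% of its cells counted, with overlapping intervals, and 684.7, 792.3, 836.3 and 673.8 CPM of G2/M genes. In cluster 9, led by Cpxm2 and Gpx3, no cell was counted among 103 and 75 cells of libraries sorted CAF 1 and all live 1 (upper interval ends 3.52% and 4.8%), and the G2/M genes summed to 54.38 and 51.71 CPM. Its S genes nevertheless summed to 206 and 226 CPM, against 207.1 and 189.2 CPM in cluster 7 of the same libraries. That S sum came mainly from Tyms (52.7 and 72.8 CPM), Rrm1 (54.4 and 38.3 CPM) and Pcna (23.1 and 32.6 CPM), while Rrm2 was at 1.65 and 7.66 CPM and Mcm5 at 0 in both libraries. Cluster 9 held 103 of the 176 and 75 of the 141 fibroblast-like cells of tumor 1 libraries sorted CAF 1 and all live 1, and cluster 7 held 588 of the 877 and 84 of the 115 of tumor 2 libraries sorted CAF 2 and all live 2. Cluster 11, led by Clec3b and Ptx3, had 3.2% in library sorted CAF 2 (1.47 to 5.99) and 3.33% in library all live 2 (0.0844 to 17.2). In library all live 1 it had 9.52% (21 cells, 1.17 to 30.4) and 760.9 CPM of G2/M genes, against 295.5 and 92.6 CPM in those 2 libraries.

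Macrophage or monocyte-like cluster 14, led by Retnla and Ccl8 and including Lyve1 and Folr2, genes of tissue-resident macrophages, had 15.7% of its cells counted in library all live 2 (10.4 to 22.3). Cluster 16, led by Ms4a4c and with the monocyte genes Ly6c2 and Ccr2 among its leading genes, had 1.25% there (0.502 to 2.55), close to the neutrophil background of 0.901%. Clusters 2 and 4 of that library lay between them at 9.09% and 8.12%. In library all live 1, clusters 2, 4 and 16 had 8.89%, 15.9% and 9.09% (6.3 to 12.1, 6.64 to 30.1 and 1.12 to 29.2), the last from 2 of 22 cells. The G2/M genes of cluster 16 summed to 1313 CPM there, against 249.8 CPM in library all live 2, so its low share was not seen in both libraries. Neutrophil-like cluster 20, led by the granule genes Camp, Ngp and Ltf of immature neutrophils, had 11 of 26 cells counted in library all live 1 (42.3%, 23.4 to 63.1), and clusters 12 and 17 of library all live 2 had 0.4% and 1.59%.

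**Figure D2:**
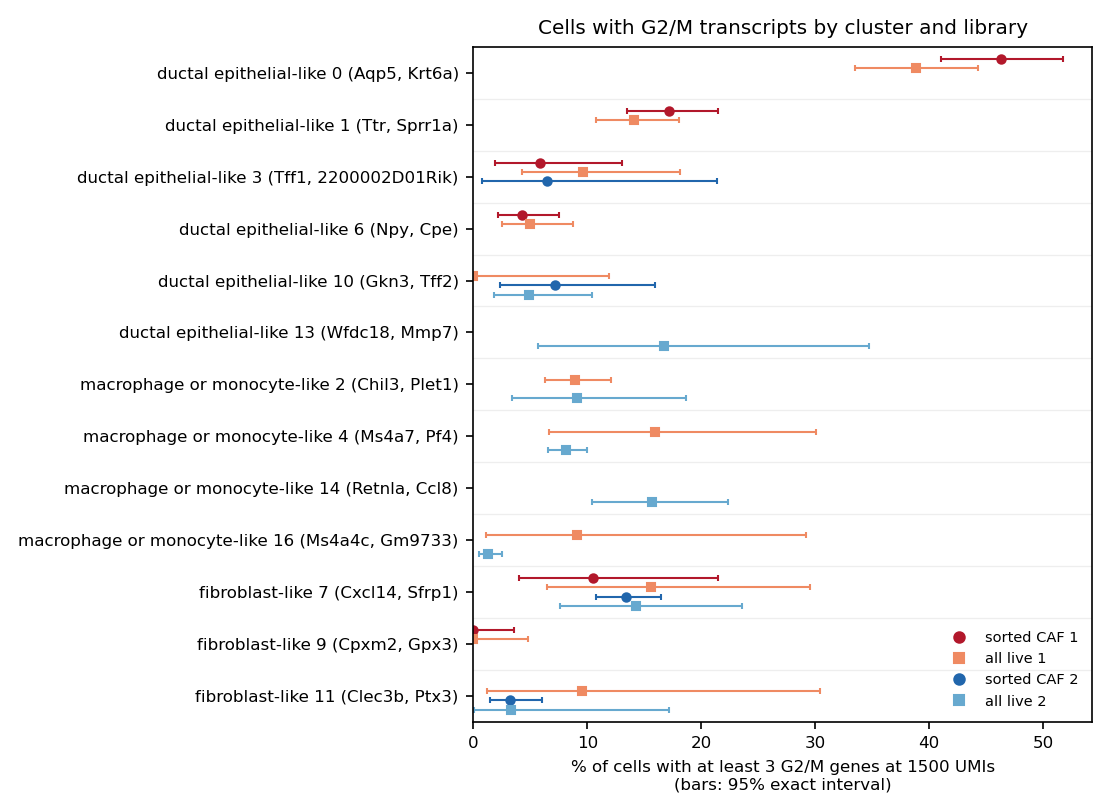
Percentage of cells with at least 3 G2/M genes at 1500 UMIs (x axis) by cluster (y axis, with leading genes) and library, with exact 95% binomial intervals. Epithelial cluster 0 lies at 46.3% and 38.8%, and fibroblast-like cluster 9 at 0% in both libraries of tumor 1.

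No difference between the sorted CAF and all live fractions passed the test for any of these genes. Over whole libraries, 0 of the 44 genes passed an adjusted p of 0.05 in sorted CAF against all live libraries (edgeR quasi-likelihood test, Benjamini-Hochberg over 14030 genes), where the background was 0% of all genes. Their log2 fold changes ran from -0.93 to 0.63, and the smallest unadjusted p was 0.205, so 0 of the 44 were under 0.05 unadjusted, against 543 of all genes; DESeq2 called 438 genes and none of the 44. In fibroblast-like cells, 0 of 32 tested genes passed (background 0% of 8703 genes; 63 genes and none of the 32 under 0.05 unadjusted; DESeq2 19 genes, none of the 32), with log2 fold changes from -0.91 to 0.89. In ductal epithelial-like cells, 0 of 44 passed (background 0% of 12261 genes; 98 genes and none of the 44 under 0.05 unadjusted; DESeq2 31 genes, none of the 44), with log2 fold changes from -0.66 to 0.63. With tumor as a block, 0.954% and 0.701% of all genes passed in fibroblast-like and ductal epithelial-like cells, and none of the listed genes in either. These misses do not show that the fractions act alike; the p-values here and below measure the spread between these few libraries, and 2 libraries against 2 cannot give an exact two-sided permutation p under 0.333.

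Ductal epithelial-like cells were set against fibroblast-like cells over all 4 libraries. Here and in the class comparisons below the sums entered the main fit as independent, although they come from 2 tumors and the classes share libraries. The fractions of a tumor thus counted as replicates, and the p-values do not stand for 4 independent tumors. Of the 39 genes tested, 24 were higher and 1 lower in ductal epithelial-like cells, where 21.6% of all 10057 genes were higher and 21.2% lower. Of the G2/M genes 13 of 22 tested were higher, of the S genes 10 of 13, and of the D and E cyclins 1 of 4 was higher and 1 lower. The median log2 fold change was 1.15 for the G2/M genes and 1.54 for the S genes, against 0.10 over all genes. Aurka, Aurkb, Bub1b, Kif11 and Ccne2 were too low to be tested. Without library sorted CAF 1, and likewise without library all live 1, 9 genes stayed higher and 1 lower, all 10 of them among the 25; of all genes 1225 of 10146 were then higher without the first and 1209 of 10163 without the second.

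Rrm2, an S gene that encodes a subunit of ribonucleotide reductase, had 217.5, 204.9, 79.4 and 26.3 CPM in ductal epithelial-like cells, against 12.5, 12.9, 13.9 and 25.4 CPM in fibroblast-like cells. The gap was wide in 3 libraries and nearly closed in library all live 2, and the log2 fold change was 3.25 ± 0.68 (SE, adjusted p = 0.00385, edgeR). Mcm3, a subunit of the replicative helicase like the other Mcm genes, had 63.6, 59.8, 36.2 and 39.8 CPM in ductal epithelial-like cells, against 4.98, 4.82, 8.83 and 18.4 CPM in fibroblast-like cells. Mcm2 had 35.5, 30.8, 17.7 and 21.8 CPM in ductal epithelial-like cells, against 4.15, 4.02, 6.30 and 1.41 CPM in fibroblast-like cells. Neither helicase gene overlapped between the classes, with log2 fold changes of 2.63 ± 0.45 for Mcm3 (adjusted p = 0.00126) and 2.64 ± 0.41 for Mcm2 (adjusted p = 0.00065). Mcm5 had 41.4, 40.0, 12.2 and 9.64 CPM in ductal epithelial-like cells, against 2.49, 1.61, 6.95 and 8.47 CPM in fibroblast-like cells. Its gap was wide in tumor 1 and narrow in tumor 2 (2.52 ± 0.67, adjusted p = 0.0134).

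Mcm6 had 56.3, 52.7, 42.8 and 39.2 CPM in ductal epithelial-like cells, against 19.9, 15.3, 15.7 and 21.2 CPM in fibroblast-like cells. Mcm7 had 46.6, 44.7, 40.9 and 33.4 CPM in ductal epithelial-like cells, against 15.8, 12.9, 10.7 and 11.3 CPM in fibroblast-like cells. Mcm4 had 25.96, 23.8, 22.0 and 16.7 CPM in ductal epithelial-like cells, against 9.13, 7.24, 12.9 and 15.5 CPM in fibroblast-like cells. All 3 were higher in every library, with log2 fold changes of 1.54, 1.84 and 1.10 (SE 0.26, 0.25 and 0.32). Cdt1, which loads the helicase, had 20.8, 19.3, 12.6 and 17.4 CPM in ductal epithelial-like cells, against 4.98, 4.02, 3.48 and 2.82 CPM in fibroblast-like cells (2.32 ± 0.31, adjusted p = 0.000275, edgeR). Pcna had 46.1, 59.4, 36.5 and 43.7 CPM in ductal epithelial-like cells, against 26.6, 33.0, 24.4 and 24.0 CPM in fibroblast-like cells (0.90 ± 0.25, adjusted p = 0.0153, edgeR). Cdc6, the loading partner of Cdt1, also passed (1.12 ± 0.41, adjusted p = 0.0494).

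Tyms and Rrm1, 2 other genes of nucleotide supply, did not pass. Tyms (thymidylate synthase) had 53.8, 53.7, 49.1 and 53.3 CPM in ductal epithelial-like cells, against 48.1, 56.3, 69.0 and 86.1 CPM in fibroblast-like cells. Rrm1 (the large subunit of ribonucleotide reductase) had 52.7, 46.9, 44.01 and 36.6 CPM in ductal epithelial-like cells, against 49.0, 29.7, 41.5 and 55.0 CPM in fibroblast-like cells. The log2 fold changes were -0.22 ± 0.24 for Tyms (adjusted p = 0.486, edgeR) and 0.15 ± 0.26 for Rrm1 (adjusted p = 0.678). E2f1, the transcription factor of the list, had -0.43 ± 0.27 (adjusted p = 0.226).

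Among G2/M genes Ube2c, the ubiquitin-conjugating enzyme of the anaphase-promoting complex, had 151, 136, 24.4 and 70.7 CPM in ductal epithelial-like cells, against 8.30, 25.7, 11.6 and 12.7 CPM in fibroblast-like cells. Cdc20, an activator of that complex, had 133.7, 112.3, 42.8 and 33.4 CPM in ductal epithelial-like cells, against 37.3, 31.4, 31.9 and 19.8 CPM in fibroblast-like cells. Both were higher, by 2.89 ± 0.62 for Ube2c (adjusted p = 0.0043, edgeR) and 1.57 ± 0.49 for Cdc20 (adjusted p = 0.028). Cks2 had 192.1, 183.2, 68.8 and 124 CPM in ductal epithelial-like cells, against 51.4, 61.1, 88.6 and 63.5 CPM in fibroblast-like cells. Ccnb1, the main B-type cyclin, had 81.7, 71.5, 13.8 and 27.6 CPM in ductal epithelial-like cells, against 17.4, 16.9, 15.3 and 5.65 CPM in fibroblast-like cells. For both the order turned in library sorted CAF 2, where fibroblast-like cells were the higher ones, and the log2 fold changes were 1.21 ± 0.38 for Cks2 (adjusted p = 0.0269) and 1.94 ± 0.59 for Ccnb1 (adjusted p = 0.0249).

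Cenpe, a kinesin of the kinetochore, had 38.4, 33.7, 28.7 and 41.1 CPM in ductal epithelial-like cells, against 9.96, 6.43, 15.3 and 12.7 CPM in fibroblast-like cells (1.70 ± 0.30, adjusted p = 0.00141). Birc5 (survivin, of the chromosomal passenger complex) had 76.8, 71.1, 65.2 and 88.7 CPM in ductal epithelial-like cells, against 39.8, 32.2, 56.0 and 52.2 CPM in fibroblast-like cells (0.81 ± 0.24, adjusted p = 0.0215). Neither gene overlapped between the classes. Nusap1, a spindle microtubule protein, had 12.9, 11.1, 5.11 and 8.99 CPM in ductal epithelial-like cells, against 3.32, 2.41, 3.10 and 0 CPM in fibroblast-like cells (2.01 ± 0.50, adjusted p = 0.00933). Ccna2 (cyclin A), used in both S phase and G2, had 63.3, 63.5, 12.97 and 23.1 CPM in ductal epithelial-like cells, against 16.6, 20.9, 14.4 and 5.65 CPM in fibroblast-like cells (1.65 ± 0.57, adjusted p = 0.0424). The other G2/M genes that passed were Cdk1, Cenpf, Cdca8, Bub1 and Prc1, with log2 fold changes of 0.97 to 1.31.

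The 2 most used proliferation genes did not pass. Mki67 had 20.01, 21.1, 39.7 and 43.0 CPM in ductal epithelial-like cells, against 4.98, 4.02, 26.4 and 18.4 CPM in fibroblast-like cells. Top2a, which untangles DNA before chromosomes separate, had 20.8, 20.1, 23.6 and 55.9 CPM in ductal epithelial-like cells, against 6.64, 3.22, 23.7 and 16.9 CPM in fibroblast-like cells. Ductal epithelial-like cells were the higher ones in every library for Mki67 and in 3 of 4 for Top2a, but the levels of each class differed widely between tumors, and the log2 fold changes were 1.10 ± 0.54 (Mki67, adjusted p = 0.128) and 1.14 ± 0.55 (Top2a, adjusted p = 0.119). Ccnb2 had 61.7, 60.3, 36.2 and 37.3 CPM in ductal epithelial-like cells, against 42.3, 41.8, 67.3 and 56.5 CPM in fibroblast-like cells, so its order turned between the tumors (0.02 ± 0.31, adjusted p = 0.966; -0.03 with DESeq2 size factors or the replicate block). Cenpa had 99.4, 91.4, 75.5 and 81.0 CPM in ductal epithelial-like cells, against 50.6, 65.1, 81.9 and 59.3 CPM in fibroblast-like cells (0.52 ± 0.24, adjusted p = 0.104). Cdca3, a trigger of mitotic entry, had 76.5, 75.7, 31.4 and 24.4 CPM in ductal epithelial-like cells, against 22.4, 37.0, 39.4 and 32.5 CPM in fibroblast-like cells (0.81 ± 0.44, adjusted p = 0.169). Both were higher in ductal epithelial-like cells in tumor 1, and Cdca3 was lower in them in both libraries of tumor 2.

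Of the D cyclins, the partners of Cdk4 and Cdk6, Ccnd1 was far higher in ductal epithelial-like cells and Ccnd3 lower. Ccnd1 had 311.7, 299.4, 370.2 and 437.5 CPM in ductal epithelial-like cells, against 16.6, 19.3, 9.02 and 4.23 CPM in fibroblast-like cells. No library came near overlap, and the log2 fold change of 4.92 ± 0.37 (adjusted p = 8.81e-06, edgeR) had the lowest adjusted p of the 39 genes tested. Ccnd3 had 40.4, 42.7, 43.6 and 45.0 CPM in ductal epithelial-like cells, against 113.7, 98.9, 69.0 and 66.3 CPM in fibroblast-like cells, and was the 1 gene that was lower (-0.93 ± 0.21, adjusted p = 0.00535). Ccnd2 had 126.7, 139.7, 26.7 and 92.5 CPM in ductal epithelial-like cells, against 91.3, 82.0, 62.7 and 77.6 CPM in fibroblast-like cells (0.44 ± 0.45, adjusted p = 0.468). The epithelial level of Ccnd2 was the higher one in 3 of the 4 libraries, and in library sorted CAF 2 it was the lowest of the 8 levels.

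Within each sum the UMIs of the 3 D cyclins can be set against each other as shares, which the 3' assay does not correct for capture. Ccnd1 made up 65.1%, 62.1%, 84% and 76.1% of D cyclin UMIs in ductal epithelial-like cells and 7.49%, 9.64%, 6.41% and 2.86% in fibroblast-like cells. Blood endothelial-like cells, with Ccnd1 at 267.5 and 242.9 CPM in libraries all live 1 and all live 2, had shares of 68.7% and 72.1%, within the epithelial range. Pericyte-like cells had 137.9 CPM of Ccnd1 and 283.3 CPM of Ccnd2, a Ccnd1 share of 28.6%. In T or NK-like cells Ccnd2 was at 362.7, Ccnd3 at 268.3 and Ccnd1 at 3.78 CPM, and the Ccnd1 share was 0.595%. Dendritic-like cells had 340 CPM of Ccnd2, and neutrophil-like cells of library all live 1 had 332.6 CPM of Ccnd3, which made up 91.2% of their D cyclin UMIs. The 444 neutrophil-like cells of library all live 2, of other clusters, had 97.3 CPM of Ccnd3 (40.7%) and 134.3 CPM of Ccnd2 (56.2%). Acinar-like cells, although epithelial, had a Ccnd1 share of 23.8% and 21.7% in libraries sorted CAF 2 and all live 2, from 21 and 46 D cyclin UMIs, and Ccnd2 made up 71.4% and 60.9%. Ccnd1 thus led in ductal epithelial-like and blood endothelial-like cells, and Ccnd2 or Ccnd3 in the other classes named here. T or NK-like cells had their Ccnd2 level beside no cell counted by G2/M genes.

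The E cyclins were low everywhere. Ccne1 had 10.2, 12.2, 1.18 and 1.93 CPM in ductal epithelial-like cells, against 6.64, 4.02, 6.01 and 4.23 CPM in fibroblast-like cells (0.56 ± 0.67, adjusted p = 0.535). Ccne2 had 5.75, 4.66, 4.32 and 1.29 CPM in ductal epithelial-like cells, against 0.83, 1.61, 3.57 and 5.65 CPM in fibroblast-like cells, and was not tested. Ccne1 was higher in epithelium in tumor 1 and lower there in tumor 2, where each ductal epithelial-like sum held 3 UMIs. The Poisson intervals of the 2 classes overlapped in libraries sorted CAF 1 and all live 2.

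**Figure D3:**
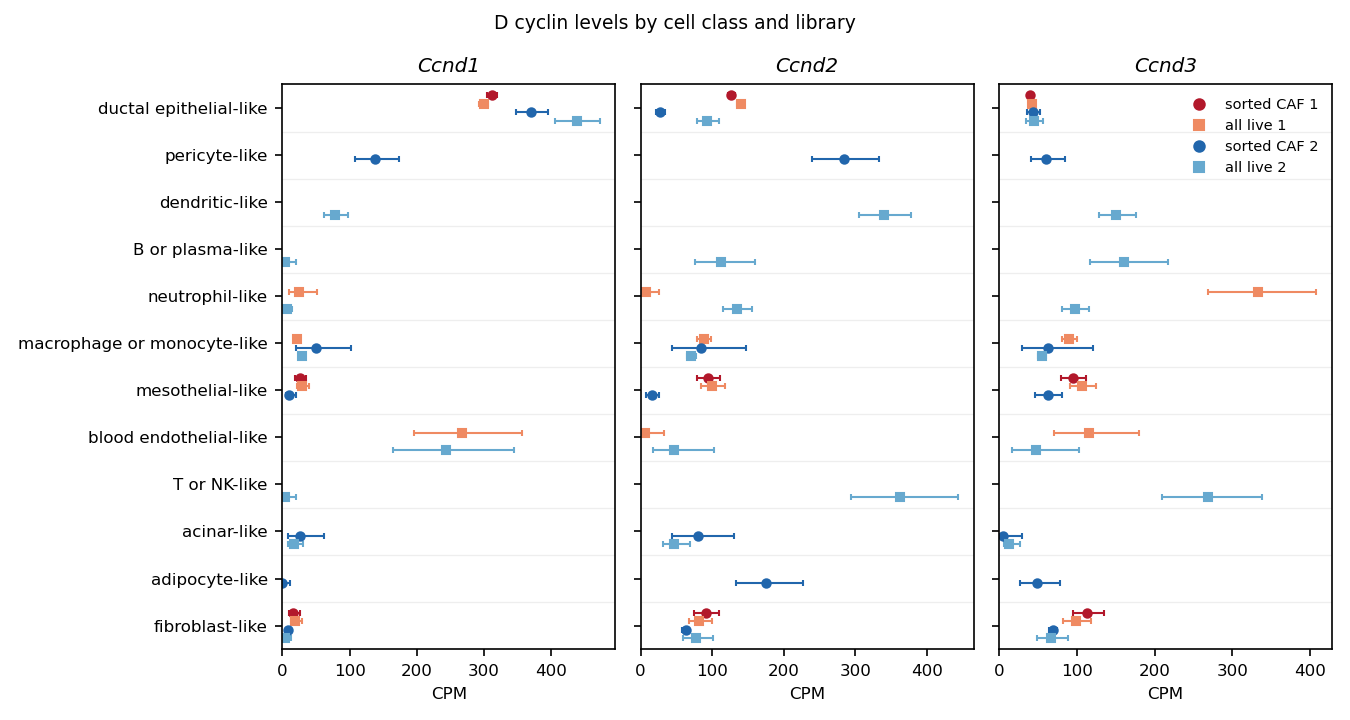
Levels of Ccnd1, Ccnd2 and Ccnd3 (CPM) by cell class, with 1 point per library. Ccnd1 lies between 299.4 and 437.5 CPM in ductal epithelial-like cells and between 4.23 and 19.3 CPM in fibroblast-like cells.

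Cells with UMIs of at least 3 G2/M genes were also set beside cells of the same class and library with none, as a description over cells without a test. Deeper cells enter the first set more readily, so levels are given in CPM. Rrm2 was at 311.3 CPM in 540 such ductal epithelial-like cells of library sorted CAF 1, against 39.33 CPM in 150 cells with none, a ratio of 7.92, and in fibroblast-like cells of library sorted CAF 2 the ratio was 21.1 (234 and 377 cells). In macrophage or monocyte-like cells of library all live 2 (179 and 1103 cells) it was 55.9. Tyms, which did not separate the classes, separated these cells within them, with 137.1 against 30.73 CPM in fibroblast-like cells of library sorted CAF 2 (ratio 4.46) and a ratio of 16.4 in macrophage or monocyte-like cells of library all live 2. The E cyclins did so too in those macrophage or monocyte-like cells, with ratios of 17.2 for Ccne1 and 21.5 for Ccne2.

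The D cyclins did not follow one direction. Ccnd1 was at 386.8 against 172.7 CPM in ductal epithelial-like cells of library sorted CAF 1 (ratio 2.24), but its ratio was 0.905 in those of library sorted CAF 2. Ccnd2 was at 40.66 against 70.49 CPM in fibroblast-like cells of library sorted CAF 2 (ratio 0.577) and at 181.7 against 429.2 CPM in dendritic-like cells (ratio 0.423), and its ratio was 1.66 in macrophage or monocyte-like cells of library all live 2. The ratio of Ccnd3 was 1.17 in fibroblast-like cells of library sorted CAF 2 and 0.966 in macrophage or monocyte-like cells of library all live 2. In ductal epithelial-like cells it was 1.5, 1.22, 1.03 and 0.635 in libraries sorted CAF 1, all live 1, sorted CAF 2 and all live 2.

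Macrophage or monocyte-like cells were set against fibroblast-like cells in the 2 all live libraries. Of the 44 genes, 9 were higher and 0 lower in macrophage or monocyte-like cells, where 12.6% of 10440 genes were higher and 16.5% lower. The median log2 fold change was 0.54 for the G2/M genes and 0.74 for the S genes, against 0.03 over all genes. With tumor as a block 15 were higher and 1 lower (Tyms), against 19.9% and 22% of all genes. With DESeq2 4 were higher and 0 lower, where 1142 of 10440 genes were higher and 1623 lower. With the cell cycle genes kept for clustering 2 of 36 tested were higher and 1 lower, where 1298 of 10186 genes were higher and 1686 lower. Under the last setting 8 G2/M genes that had not passed turned from above to below 0 (log2 fold changes of -0.04 for Cks2 to -0.86 for Cenpf). The class was then without the unnamed clusters given above, led by Top2a and by Retnla. Leaving out a library leaves 1 sum against 1, which allows no fit.

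Top2a was at 39.0 and 53.2 CPM in macrophage or monocyte-like cells of libraries all live 1 and all live 2, against 3.22 and 16.9 CPM in fibroblast-like cells (2.58 ± 0.65, adjusted p = 0.0201, edgeR). Nusap1 was at 12.5 and 13.1 CPM against 2.41 and 0 CPM (3.31 ± 0.76, adjusted p = 0.0133), and Mcm2 at 14.8 and 11.8 CPM against 4.02 and 1.41 CPM (2.37 ± 0.59, adjusted p = 0.0193), in the same order of classes and libraries. All 3 were higher in both libraries. Pcna was at 56.5 and 54.8 CPM in macrophage or monocyte-like cells, against 33.0 and 24.0 CPM in fibroblast-like cells (1.19 ± 0.34, adjusted p = 0.032). Aurkb, the kinase of the chromosomal passenger complex, was at 15.03 and 7.66 CPM in macrophage or monocyte-like cells, against 2.41 and 2.82 CPM in fibroblast-like cells (2.35 ± 0.68, adjusted p = 0.0356). Kif11, a spindle kinesin, was at 5.57 and 7.66 CPM in macrophage or monocyte-like cells, against 1.61 and 1.41 CPM in fibroblast-like cells (2.33 ± 0.69, adjusted p = 0.0384). All 3 of these were higher in each library. Cdt1 was at 12.8 and 10.4 CPM in macrophage or monocyte-like cells, against 4.02 and 2.82 CPM in fibroblast-like cells (1.93 ± 0.54, adjusted p = 0.0317). Mcm3 was at 29.5 and 38.6 CPM in macrophage or monocyte-like cells, against 4.82 and 18.4 CPM in fibroblast-like cells (1.91 ± 0.60, adjusted p = 0.047). Bub1b passed as well, and the 5 cyclins did not. In the fibroblast-like sums of libraries all live 1 and all live 2, 3 UMIs are 2.41 and 4.23 CPM. Nusap1, Aurkb and Kif11 lay at or below these levels in both sums, and Mcm2, Cdt1 and Bub1b in that of library all live 2. These calls thus rest on few fibroblast-like UMIs. Tyms was at 31.2 and 22.4 CPM in macrophage or monocyte-like cells, against 56.3 and 86.1 CPM in fibroblast-like cells (-1.17 ± 0.39, adjusted p = 0.0568).

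Mesothelial-like cells, which line the abdominal organs and share many genes with fibroblasts, were set against fibroblast-like cells over 3 and 4 libraries. Of 34 genes tested, 2 were higher and 0 lower in mesothelial-like cells, where 5.73% of 8980 genes were higher and 7.28% lower, so that the share of the listed genes was near the background. Cdc20 was at 65.3, 54.6 and 45.9 CPM in mesothelial-like cells of libraries sorted CAF 1, all live 1 and sorted CAF 2, and at 37.3, 31.4, 31.9 and 19.8 CPM in fibroblast-like cells (0.81 ± 0.22, adjusted p = 0.0376, edgeR). Mcm2 was at 13.3, 14.0 and 10.6 CPM in mesothelial-like cells and at 4.15, 4.02, 6.30 and 1.41 CPM in fibroblast-like cells (1.35 ± 0.37, adjusted p = 0.0388, edgeR). Neither overlapped, but the count fell to 0 without library sorted CAF 1 and to 0 without library all live 1, and to 1 without library all live 2. It was 3 without library sorted CAF 2. Of all genes 567 of 9148, 644 of 9049, 985 of 8889 and 1201 of 9135 were then called, in the same order, against 1169 of 8980 in the main fit.

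The epithelial difference was itself unlike in the 2 tumors. As a test of the class difference in tumor 1 minus that in tumor 2, 24 of the 44 genes were higher and 1 lower, where 8.86% of 11296 genes were higher and 8.45% lower. Of the G2/M genes 18 of 26 were higher and of the S genes 5 of 13, and the cyclins gave 1 higher and 1 lower; the median was 1.52 on the log2 scale, against 0.00 over all genes. The values printed above for each library show it directly: Ccnb2, Cks2 and Cdca3 were higher in ductal epithelial-like than in fibroblast-like cells of tumor 1, and Ccnb2 and Cdca3 were lower in both libraries of tumor 2. The number of calls changed strongly with a library left out. It fell most without either library of tumor 1, and the calls over all genes fell there as well. In such a fit the lone library of a tumor is assumed to vary like the others.

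Mcm5 had the largest difference between the tumors (4.02 ± 0.45, adjusted p = 0.00129, edgeR), followed by Ccne1 (3.37 ± 0.59, adjusted p = 0.00721). Fibroblast-like Mcm5 of libraries sorted CAF 1 and all live 1 lay at or below the level of 3 UMIs (2.49 and 2.41 CPM). For Ccne1 only 3 UMIs were counted in ductal epithelial-like cells of each tumor 2 library, and 3 in fibroblast-like cells of library all live 2. Aurka, the spindle pole kinase, had 35.8, 28.4, 2.36 and 8.99 CPM in ductal epithelial-like cells, against 2.49, 3.22, 3.29 and 1.41 CPM in fibroblast-like cells (3.12 ± 0.79, adjusted p = 0.0279). Tpx2, which activates Aurka on the spindle, had 50.8, 44.4, 22.8 and 30.2 CPM in ductal epithelial-like cells, against 6.64, 11.3, 27.5 and 31.1 CPM in fibroblast-like cells (2.88 ± 0.33, adjusted p = 0.00155). The epithelial levels were higher in tumor 1 for both, and fibroblast-like Tpx2 was higher in tumor 2. Kif20a, a kinesin of cytokinesis, had 49.9, 43.0, 11 and 7.07 CPM in ductal epithelial-like cells, against 13.3, 16.1, 14.7 and 11.3 CPM in fibroblast-like cells (2.58 ± 0.37, adjusted p = 0.00349). Aurkb had 17.1, 15.3, 1.97 and 5.78 CPM in ductal epithelial-like cells, against 3.32, 2.41, 3.95 and 2.82 CPM in fibroblast-like cells (2.97 ± 0.65, adjusted p = 0.0166). Bub1b, of the spindle checkpoint, had 12.6, 12.0, 3.93 and 4.50 CPM in ductal epithelial-like cells, against 2.49, 4.82, 5.83 and 4.23 CPM in fibroblast-like cells (2.50 ± 0.50, adjusted p = 0.0121). For Kif20a, Aurkb and Bub1b the class gap of tumor 1 was turned in library sorted CAF 2. Fibroblast-like Aurka and Bub1b lay at or below the level of 3 UMIs in libraries sorted CAF 1 and all live 2 (2.49 and 4.23 CPM). Fibroblast-like Aurkb did so in libraries all live 1 and all live 2 (2.41 and 4.23 CPM).

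Other values moved with this difference, and their part in it was not tested. Tumor 1 fibroblast-like cells were mostly of cluster 9 and tumor 2 ones mostly of cluster 7, the epithelial clusters differed as given above, and the median depth of ductal epithelial-like cells was 7362 UMIs in library all live 2, against 16844 to 19191.5 in the other 3 libraries. The Epcam level of ductal epithelial-like cells was 6.85 CPM in library sorted CAF 1, 56.5 CPM in library all live 1, 169 CPM in library sorted CAF 2 and 1.8e+03 CPM in library all live 2. Tumor, animal and cluster make-up cannot be told apart with 2 tumors. Ccnd1, the gene with the opposite sign, had -1.16 ± 0.31 (adjusted p = 0.0331, edgeR), with higher epithelial and lower fibroblast levels in tumor 2.

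The make-up of the G2/M sum also varied; the gene pairs were chosen after their values were seen, and no test was made. Mki67 and Top2a together gave 2.9%, 3.2%, 9.6% and 10.6% of G2/M UMIs in ductal epithelial-like cells and 2.83%, 1.52%, 7.43% and 6.67% in fibroblast-like cells. Cdc20 and Ube2c gave 20.2%, 19.3%, 10.2% and 11.1% in ductal epithelial-like cells and 11.1%, 12%, 6.44% and 6.13% in fibroblast-like cells. In both classes the first pair was a larger part in tumor 2 and the second pair in tumor 1, in both fractions of each. Macrophage or monocyte-like cells had the same order, with 9.23% and 16.4% for the first pair and 9.5% and 5.46% for the second in libraries all live 1 and all live 2. Cks2 and Cenpa gave 85.7% of the G2/M UMIs of T or NK-like cells and 72.8% in neutrophil-like cells of library all live 2, the classes with the fewest counted cells among leukocytes, and 20.7% to 26.5% in ductal epithelial-like and fibroblast-like cells.

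**Figure D4:**
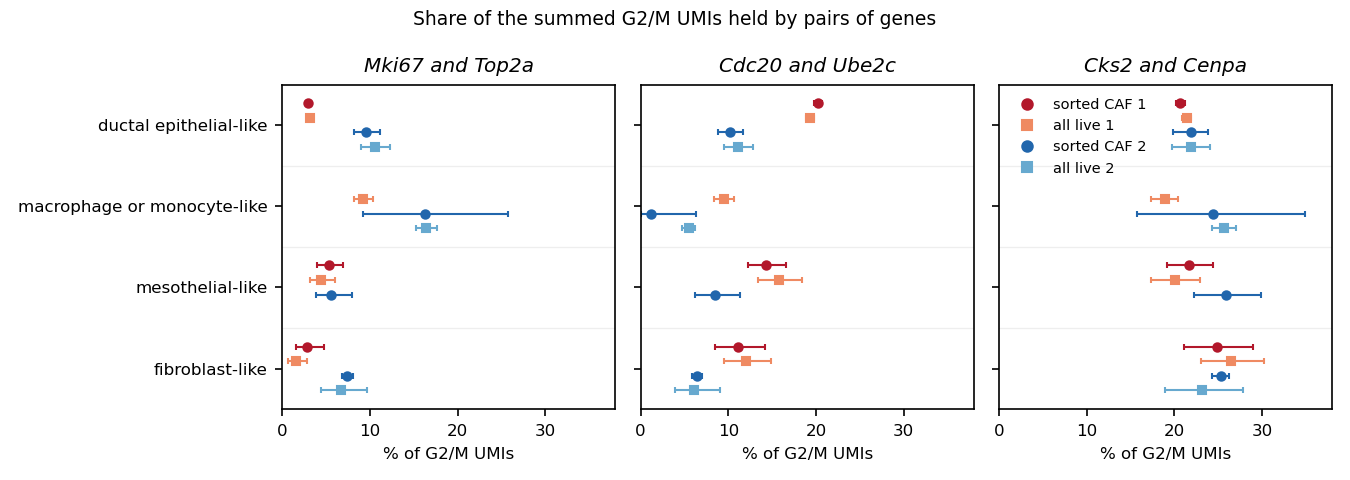
Percentage of all G2/M UMIs of a class given by Mki67 with Top2a, by Cdc20 with Ube2c and by Cks2 with Cenpa, by class and library, with exact 95% binomial intervals. In ductal epithelial-like cells the first pair lies at 2.9% and 3.2% in tumor 1 and at 9.6% and 10.6% in tumor 2.

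Other genes of the cycle were read from fixed lists. In ductal epithelial-like against fibroblast-like cells 15 of 31 tested further S genes and 15 of 29 further G2/M genes were higher and 0 lower, where 21.6% of all genes were higher and 21.2% lower. They were led by Chaf1b of chromatin assembly factor 1 (3.24 ± 0.42) and the cytokinesis genes Kif23 (2.52 ± 0.39) and Ect2 (2.48 ± 0.53). Of 12 kinases, E2F factors and phosphatases 2 were higher (Cdk6, 1.67 ± 0.34, and Cdc25a, 1.38 ± 0.42), and of 12 inhibitors and pocket proteins 4 were higher and 2 lower. Cdkn2a, whose products p16 and p19Arf restrain Cdk4 and Mdm2, had 350.2, 392.8, 404 and 302.6 CPM in ductal epithelial-like cells, against 82.14, 57.08, 32.89 and 57.87 CPM in fibroblast-like cells (2.77 ± 0.29, adjusted p = 5.88e-05, edgeR). Cdkn1c, the inhibitor p57, had 48.46, 48.34, 14.15 and 9.637 CPM in ductal epithelial-like cells, against 536, 417.2, 146.1 and 131.3 CPM in fibroblast-like cells (-3.12 ± 0.68, adjusted p = 0.00469). Trp53, 1 allele of which is engineered in these mice, had 126.7, 118, 126.9 and 94.44 CPM in ductal epithelial-like cells, against 53.1, 38.59, 29.5 and 31.05 CPM in fibroblast-like cells (1.72 ± 0.25, adjusted p = 0.000375). None of these 3 genes overlapped between the classes.

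In macrophage or monocyte-like against fibroblast-like cells 3 of 31 further S genes were higher, and of 30 further G2/M genes 6 were higher and 1 lower, where 12.6% of all genes were higher and 16.5% lower. The S count is a share below that background. Of 13 inhibitors and pocket proteins 5 were higher and 4 lower: Cdkn1a, the inhibitor p21, was at 699.1 and 470.9 CPM in macrophage or monocyte-like cells of libraries all live 1 and all live 2, against 110.9 and 56.45 CPM in fibroblast-like cells (3.04 ± 0.44, adjusted p = 0.00159, edgeR). Of 14 kinases, E2F factors and phosphatases 2 were higher and 2 lower; E2f2 had 33 and 58 UMIs in macrophage or monocyte-like cells, against 0 and 0 UMIs in fibroblast-like cells, and Myc was lower (-2.04 ± 0.38, adjusted p = 0.0053). In mesothelial-like against fibroblast-like cells each of the 4 lists had 1 gene higher (5.73% of all genes), and Cdkn1c (-3.74 ± 0.59) and Cdkn2b (-0.77 ± 0.22) were lower. For the difference between the tumors 16 of 34 further G2/M genes were higher and 0 lower, and 8 of 32 further S genes were higher and 1 lower (Casp8ap2), where 8.86% of all genes were higher and 8.45% lower; Cdc25c, the phosphatase that activates Cdk1, had 22.26, 18.88, 2.751 and 0.6425 CPM in ductal epithelial-like cells, against 4.978, 3.215, 3.477 and 1.411 CPM in fibroblast-like cells (3.42 ± 0.68, adjusted p = 0.0121). Both Cdc25c levels of library all live 2 were below the level of 3 UMIs (1.93 CPM in ductal epithelial-like and 4.23 CPM in fibroblast-like cells). Of 14 kinases, E2F factors and phosphatases 3 were higher and 1 lower (Cdk6, -1.62 ± 0.29), and of 13 inhibitors and pocket proteins 1 was higher (Cdkn2b, 0.97 ± 0.26).

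Over the 25 class sums, the genes most like Mki67 by Pearson correlation of log2(CPM + 1) were Birc5 and Prc1 (0.92 each) and Top2a (0.91), all 3 of the G2/M list. The genes most like Ccne1 were Asf1b (0.82), Tacc3 (0.78) and Ccna2 (0.74), and those most like Ccne2 were 2410016O06Rik (0.70), Prim1 (0.68) and Lig1 (0.67). The D cyclins had neighbours outside these lists, with Epha2 (0.85) for Ccnd1 and D6Wsu163e (0.80) for Ccnd2, while Ccnd3 had Ppp1r18 (0.82), Rnf166 (0.81) and the histone mRNA-binding gene Slbp (0.81). The sums share libraries and differ in depth, and these correlations are descriptions.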

How the data were processed

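Raw UMI counts per gene and cell were deposited as 1 matrix per library; per the submitters' processing notes they were made with CASAVA 1.4, Cell Ranger 2.0.0 and build mm10, and nothing states a further filter. A barcode stayed in with 500 or more genes detected and a mitochondrial share of UMIs not above 10% (7984 of 8282). Scrublet called 27 (0.338%) doublets automatically, too few to have worked, so the highest scores were left out at 0.8% per 1000 barcodes (157). Clustering (scanpy 1.11.5, igraph 0.11.9, Python 3.11.15; 2000 variable genes, 30 components, 15 neighbours, resolution 1) used no cell cycle gene and gave 27 clusters, named from at least 3 markers of a fixed list; clusters 19, 21 and 26 stayed unnamed. Counts were summed per library and class (at least 20 cells) and tested with edgeR 4.0.16 (R 4.3.3; TMM, filterByExpr, quasi-likelihood test, two-sided, Benjamini-Hochberg over all genes tested, threshold 0.05), without a block in the main fits; the script was tested on simulated data. Alternatives were DESeq2 1.42.0, DESeq2 size factors, no filter, a block for tumor, finer clusters, doublets kept, cell cycle genes kept for clustering, sums of at least 50 cells, other thinning depths and numbers of G2/M genes, and leaving out each library. Libraries of one number are fractions of one tumor per the labels, and their deviations from the group means correlated at 0.70 over 8136 genes. This is a single value, since with 2 libraries a group the deviations of tumor 2 are those of tumor 1 with the sign turned. Intervals are exact (Clopper-Pearson or Poisson, 95%), and a count of 0 allows 3 counts.

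The members and lists were chosen with earlier results of these data known. Values in every library are given for the 5 cyclins, for the 8 genes of highest mean level in each other phase, and for genes past the threshold among the 5 largest changes of their phase; of the other lists up to 3 called genes with the largest changes are named. Among the 27998 genes 65 repeat an earlier symbol, none of them among the 44 genes. Where a gene shares reads with a near-identical copy, the counting could split them.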

Additional observations from a re-analysis of the deposited data

Results flagged for a closer look

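The class difference between ductal epithelial-like and fibroblast-like cells differed between tumor 1 and tumor 2 by the edgeR interaction test (log2 difference, tumor 1 minus tumor 2, adjusted p under 0.05) in 25 of the 44 genes (24 higher, 1 lower), where 8.86% of 11296 genes were higher and 8.45% lower. Most of these calls were lost without either library of tumor 1, as were most calls over all genes, and tumor 1 then has a single library. Among G2/M genes the values were 1.77 for Mki67, 1.76 for Cdc20, 1.98 for Ccnb1, 1.68 for Ccnb2, 1.69 for Ccna2, 1.28 for Cdk1, 0.92 for Birc5, 0.99 for Cenpa and 1.28 for Cenpe. They were 2.88 for Tpx2, 2.10 for Cdca3, 1.74 for Cdca8, 1.84 for Cks2, 3.12 for Aurka, 2.97 for Aurkb, 2.13 for Bub1, 2.50 for Bub1b and 2.58 for Kif20a. Among S genes they were 2.12 for Mcm3, 1.4 for Mcm4, 4.02 for Mcm5, 0.96 for Tyms and 2.65 for Rrm2, and among the cyclins -1.16 for Ccnd1 and 3.37 for Ccne1. The value of Ccne1 rests on 3 UMIs in ductal epithelial-like cells of each tumor 2 library. Those of Mcm5, Aurka, Aurkb and Bub1b rest in part on fibroblast-like sums with 3 UMIs or fewer of the gene. The spread behind these p-values is that between the 2 fractions of each tumor, and the part of the tumors' different clusters and depths was not tested.

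In 2 clusters that kept no cell type name and enter no comparison, a share of cells had UMIs of at least 3 G2/M genes at 1500 UMIs. It was 56% (14 of 25 cells, exact 95% interval 34.9 to 75.6) in cluster 21 of library all live 2, whose leading genes include Mmp9, Ctsk, Acp5 and Atp6v0d2 and also Top2a, and whose G2/M genes summed to 4329 CPM. It was 5.93% (8 of 135 cells, 2.59 to 11.3) in cluster 19 of the same library, whose leading genes mix T and B cell genes. Both lie above the 0.901% of neutrophil-like cells of that library.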

How the results depend on the processing

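None of the genes that passed a test changed sign under any alternative. Between ductal epithelial-like and fibroblast-like cells 25 of the 39 tested genes passed. Of the others, 1 (Ccnb2) changed sign under a change of method and 4 with a library left out. In macrophage or monocyte-like cells 8 that did not pass changed sign, all with cell cycle genes kept for clustering. The numbers were 7 and 12 in mesothelial-like cells and 1 and 5 for the difference between the tumors. In ductal epithelial-like against fibroblast-like cells 193 of 200 calls held over the changes of method and 60 of 99 over libraries left out, and for the difference between the tumors 155 of 175 and 42 of 100. The 25 genes called in the first comparison became 10 to 24 with a library left out and 27 with the replicate block. Of all genes 2895 of 10146 to 5246 of 12213 were called with a library left out and 5568 of 10057 with the block, against 4299 of 10057 in the main fit. In macrophage or monocyte-like against fibroblast-like cells the 9 calls became 4 with DESeq2, 15 with no filter, 16 with the replicate block and 3 with cell cycle genes kept for clustering. Of all genes 2765 of 10440, 4055 of 16580, 4381 of 10440 and 2984 of 10186 were called under these settings, in the same order. Leaving out a library could not be fitted there and was not run. In mesothelial-like against fibroblast-like cells the 2 calls became 1 with DESeq2, 0 with no filter and 0 to 3 with a library left out, and stayed 2 with the replicate block. The calls over all genes, in the same order, were 1244 of 8977, 1424 of 17779, 567 of 9148 to 1201 of 9135, and 1828 of 8980. For the difference between the tumors the 25 calls became 14 with DESeq2 and 1 to 33 with a library left out. For that difference 51.2% of all called genes were higher, against 39.1% with DESeq2. The pairing by tumor changed no other count by over 1.5 times; the 3 comparisons of sorted CAF with all live libraries kept 0 calls under it and under each library left out. The cause of these changes was not tested.

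The share of cells moved with the number of G2/M genes asked for. At 2 genes it was 14% in fibroblast-like cells of library sorted CAF 2, 30.3%, 27.5% and 21.1% in ductal epithelial-like cells of libraries sorted CAF 1, all live 1 and sorted CAF 2, and 9.45% in macrophage or monocyte-like cells of library all live 2. At 5 genes it was 4.68% and 4.35% in fibroblast-like cells of libraries sorted CAF 2 and all live 2. It was 10.7%, 8.97% and 5.26% in ductal epithelial-like cells of libraries sorted CAF 1, all live 1 and all live 2, and 5.95% and 4.06% in macrophage or monocyte-like cells of libraries all live 1 and all live 2. At 4000 UMIs it was 18.2% and 22.7% in fibroblast-like cells of libraries sorted CAF 2 and all live 2, 34.2%, 34.4%, 22.1% and 15.2% in ductal epithelial-like cells and 12.6% in macrophage or monocyte-like cells of library all live 2. Without thinning it was 12.1%, 26.7% and 24.3% in fibroblast-like cells of libraries all live 1, sorted CAF 2 and all live 2, 51.1%, 52.5%, 49.2% and 22.8% in ductal epithelial-like cells and 15.6% and 9.83% in macrophage or monocyte-like cells of libraries all live 1 and all live 2. With cell cycle genes kept for clustering it was 1.47% in macrophage or monocyte-like cells of library all live 2. That class was then without the unnamed clusters led by Top2a and by Retnla. With 2 tumors, 1500 UMIs per cell and classes of 21 to 58 cells, small shares and low genes such as Ccne2 are at the limit of what the depth resolves.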
